A study of Mus musculus with 6 samples.

Results

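The genes described here were 7 oncofetal genes of chromatin and RNA binding: the HMGA genes Hmga2 and Hmga1, the LIN28 genes Lin28a and Lin28b, and the IGF2BP genes Igf2bp1, Igf2bp2 and Igf2bp3. They were taken by name from the 38561 gene IDs counted in 6 mouse RNA sequencing libraries, and all 7 symbols were found. Hmga2 was chosen by its measured level, since nearly all its reads came from the soft tissue sarcomas, and its values below therefore are a description without a test. All 6 libraries came from mice of the genotype NG2-Cre;p53flox/flox on a mixed background, in which Cre is driven by the promoter of NG2 (Cspg4), a pericyte proteoglycan, and acts on floxed Trp53. The 3 groups had 2 libraries each: NG2-expressing perivascular cells sorted from skeletal muscle (tissue type normal), primary osteosarcomas of the right tibia (replicate 1) and the lumbar spine (replicate 2), and primary soft tissue sarcomas, both from subcutaneous tissue. The labels give no age and do not say whether the 2 libraries of a group came from separate animals, so p-values measure only the spread between these libraries. The series title asks whether tumours of mesenchyme can arise from pericytes, and the comparisons below set each tumour against the NG2 cells and the tumours against each other.

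These genes share a circuit of early development. LIN28 proteins bind precursors of the let-7 microRNAs and block their maturation, partly by recruiting terminal uridylyl transferases, while mature let-7 binds the 3' untranslated regions (UTRs) of messenger RNAs and lowers their output. Hmga2, the Lin28 genes and the Igf2bp genes are textbook let-7 targets. Most of them are made in the embryo and shut off in most adult tissues, while Igf2bp2 is also made in adult tissues. HMGA proteins bind AT-rich DNA through AT hooks and change the shape of chromatin, and HMGA2 is well known in mesenchymal tumours, where its gene is often rearranged. IGF2BP proteins bind messenger RNAs, Igf2 mRNA among them, and control their stability, place and translation; Igf2bp2 has been described as a target of HMGA2 in the embryo.

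The seed of let-7 and its matches in the members are shown because let-7 belongs to the circuit described above. Matches were likely beforehand, since several members are known let-7 targets. In the RefSeq table of mature miRNAs (GRCm38.p6), the 9 let-7 family members listed, let-7a to let-7i and miR-98, shared the same seed, bases 2 to 8, here in capitals.
mmu-let-7a-5p: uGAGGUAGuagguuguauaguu
mmu-let-7g-5p: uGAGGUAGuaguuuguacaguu
mmu-miR-98-5p: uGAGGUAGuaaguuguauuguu

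The reverse complement of the seed, CTACCTC, was searched on the transcribed strand in the longest annotated 3' UTR of each gene. All 7 members held at least 1 match, against 9.16% of the 3' UTRs of 20428 genes, and 6 of the 7 held the 8-base match CTACCTCA, against 3.10%. Hmga1 was the exception, with a 7-base match only. Since several members are known let-7 targets, this count describes the choice of genes and was not tested. The 3' UTRs of the members, of 1183 to 6337 bases, were also longer than the median of 971.5 bases. Hmga2 (a 3' UTR of 3014 bases), Lin28b (4445 bases) and Igf2bp1 (6337 bases) each held 4 matches. Only 12 of all genes had as many, which is 0.0587%, and among 3' UTRs within 25% of the length of Hmga2's the share was 0.141%. Lin28a held 2 matches, both of 8 bases, and Igf2bp2, Igf2bp3 and Hmga1 held 1 each. For those 3 the match is less unusual: 11.7%, 13.2% and 8.22% of 3' UTRs of like length had at least 1. The sites of the HMGA genes and those of Igf2bp2 and Igf2bp3, the members with the most reads in the soft tissue sarcomas, read as follows, 5' to 3' on the strand of the gene, with the seed match in capitals and GRCm38 positions.
Hmga2 site 1, chr10:120364224-120364245 (minus strand): ccgacattcaatttCTACCTCa
Hmga2 site 2, chr10:120362987-120363008 (minus strand): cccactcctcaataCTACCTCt
Hmga2 site 3, chr10:120362549-120362570 (minus strand): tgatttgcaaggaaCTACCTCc
Hmga2 site 4, chr10:120361691-120361712 (minus strand): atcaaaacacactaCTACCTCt
Hmga1, chr17:27563278-27563299 (plus strand): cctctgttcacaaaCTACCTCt
Igf2bp2, chr16:22059473-22059494 (minus strand): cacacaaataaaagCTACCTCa
Igf2bp3, chr6:49086787-49086808 (minus strand): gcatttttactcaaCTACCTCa

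Site 1 of Hmga2 is followed by an A, which makes it the 8-base match, and the other 3 are not. Mature let-7 was not measured in these libraries, which were primed on poly(A) tails: the 10 let-7 hairpin genes listed had at most 58 counts, and at most 18 in a tumour. The matches therefore say nothing about how much let-7 acted on these transcripts.

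The promoters of Hmga2 and Igf2bp2 are shown as well, because these genes had the largest fitted differences between soft tissue sarcoma and the other groups among the members. Each is the 250 bases before the RefSeq start (GRCm38.p6), 5' to 3' on the strand of the gene. Capitals mark the longest run of C and T in Hmga2 and the GC boxes (GGGCGG on either strand) in Igf2bp2.
Hmga2 promoter, chr10:120476470-120476719 (minus strand): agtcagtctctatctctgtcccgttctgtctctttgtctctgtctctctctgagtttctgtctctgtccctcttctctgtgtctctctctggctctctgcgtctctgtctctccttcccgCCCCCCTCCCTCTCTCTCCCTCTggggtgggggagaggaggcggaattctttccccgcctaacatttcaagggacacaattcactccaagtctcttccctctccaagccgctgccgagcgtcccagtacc
Igf2bp2 promoter, chr16:22163300-22163549 (minus strand): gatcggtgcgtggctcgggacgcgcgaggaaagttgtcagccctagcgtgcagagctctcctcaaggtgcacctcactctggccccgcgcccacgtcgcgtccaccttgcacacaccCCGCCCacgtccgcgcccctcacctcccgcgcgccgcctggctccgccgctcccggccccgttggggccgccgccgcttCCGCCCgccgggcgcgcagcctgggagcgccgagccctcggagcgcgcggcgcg

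The Hmga2 window was 56.4% G and C, with 8 CpG dinucleotides and 1 GC box. Its run of 23 pyrimidines lay 130 to 108 bases before the start, and 1.83% of the 32841 promoters in the table had a run as long. Igf2bp2 had a different composition, 77.2% G and C with 40 CpG dinucleotides, a number that 98.9% of promoters did not exceed, and 2 GC boxes. A GC box was present in 32.7% of all promoters, and the median promoter had 52.4% G and C and 6 CpG dinucleotides. These are descriptions of sequence only, since no library measured binding, methylation or transcription starts.

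Depth on genes ranged from 27693585 to 58126832 counts per library. Trp53, the floxed gene, had 101 and 82.3 CPM (counts scaled to a common library size with TMM, a factor that evens out library composition) in the NG2 cells, 24.3 and 32.6 in the osteosarcomas and 31.2 and 27.3 in the soft tissue sarcomas. It fell by 1.69 and 1.65 on the log2 scale in the 2 tumour types against NG2 cells (edgeR quasi-likelihood test, adjusted p = 0.0172 and 0.0199), calls lost without any 1 of the NG2 or soft tissue sarcoma libraries (adjusted p 0.0534 to 0.166). Exons outside the deleted part can still be counted. The 10 pericyte markers were all detected in every library, and summed to 918 and 1487 CPM in the NG2 cells and 384 to 943 in the tumours. Of the NG2 sums, Rgs5 gave 772 and 1290 CPM. Cspg4, the gene of NG2, was at 38.6 and 30.6 CPM in the NG2 cells and at 37.7 to 188 in the tumours. Lymphocyte markers summed to 2932 to 5830 CPM in the NG2 cells and 54.1 to 153 in the tumours, and osteoblast markers to 38220 to 39338 CPM in osteosarcoma and 4003 to 4355 in soft tissue sarcoma. The lane in the deposited names ran with the groups, so lane and group cannot be told apart. In bulk RNA, fewer cells of a type and less RNA per cell cannot be told apart either.

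Hmga2 (ENSMUSG00000056758, chr10:120361275-120476469, minus strand), the HMGA gene of embryonic mesenchyme, had 16 and 95 counts in the NG2 cells, 6 and 11 in the osteosarcomas, and 19751 and 3564 in the soft tissue sarcomas. As CPM these were 0.443 and 2.18, 0.114 and 0.391, and 331 and 120. Both soft tissue sarcomas therefore lay far above the other 4 libraries, which all stayed under 3 CPM. The fitted level in soft tissue sarcoma was 170-fold that in NG2 cells (log2 7.41) and 962-fold that in osteosarcoma (log2 9.91). Without 1 library at a time the first log2 difference ran from 6.53 (without soft tissue sarcoma replicate 1) to 9.0 (without NG2 replicate 2), and the second from 8.97 (without soft tissue sarcoma replicate 1) to 10.93 (without osteosarcoma replicate 2). Between the 2 low groups osteosarcoma was below NG2 cells by a fitted log2 of -2.50. That gap shrank to -0.92 without NG2 replicate 2, the library with 95 of the 111 counts of its group.

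Reads inside the Hmga2 locus were not limited to the gene itself. The opposite-strand transcripts 1700006J14Rik and 9230105E05Rik had 2013 and 337, and 354 and 38, counts in the soft tissue sarcomas, and the intronic Mir763 had 1399 and 183. All of them had 0 counts in the other 4 libraries. The counting is not stated to use strand. For the opposite-strand transcripts, reads in bases shared with exons of Hmga2 therefore cannot be told apart from reads of Hmga2. Mir763 lies on the strand of Hmga2, so the strand setting does not bear on its reads.

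Hmga1 (ENSMUSG00000046711, chr17:27556497-27563674, plus strand), the HMGA gene of many dividing cells, had 11.5 and 3.67 CPM in the NG2 cells, 2.75 and 2.99 in the osteosarcomas and 368 and 135 in the soft tissue sarcomas. As with Hmga2, the soft tissue sarcomas stood above all other libraries and replicate 1 was the higher of the pair. Against NG2 cells Hmga1 rose 33.1-fold in soft tissue sarcoma (log2 5.05 ± 0.78 SE, edgeR quasi-likelihood test, adjusted p = 0.0144). The log2 difference was 4.17 without soft tissue sarcoma replicate 1 (adjusted p = 0.0779), 5.63 without replicate 2 (0.0663), 4.46 without NG2 replicate 2 (0.0575) and 6.10 without NG2 replicate 1 (0.0433). Against osteosarcoma the fitted ratio was larger, 87.7-fold (log2 6.45 ± 0.83), but the adjusted p of 0.0583 missed the threshold of 0.05. The osteosarcomas did not differ detectably from NG2 cells (log2 -1.40 ± 0.68, adjusted p = 0.182).

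A near-identical copy, Hmga1b (ENSMUSG00000078249, chr11:120762794-120764419), was counted apart and its reads are hard to separate from those of Hmga1. Its counts were 13 and 126 in the NG2 cells, 117 and 41 in the osteosarcomas and 1174 and 3519 in the soft tissue sarcomas. The split between the copies was uneven within groups: of the summed reads Hmga1b took 5.08% (Wilson 95% interval 4.80 to 5.37%, which covers counting error only) in soft tissue sarcoma replicate 1 and 46.8% (45.7 to 47.9%) in replicate 2. In the NG2 cells the shares were 3.03% (1.78 to 5.11%) and 44.1% (38.4 to 49.9%), and in the osteosarcomas 44.7% and 32.8%. Hmga1b rose 42.2-fold in soft tissue sarcoma against NG2 cells (log2 5.40 ± 1.31, edgeR adjusted p = 0.0389), a call lost without any of the 4 libraries of these groups (log2 3.62 to 7.58, adjusted p 0.0697 to 0.204). With the copies summed, the log2 difference of Hmga1 was 5.12 against NG2 cells (adjusted p = 0.00734) and 6.09 against osteosarcoma (adjusted p = 0.0395), so the second comparison then passed.

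**Figure D1:**
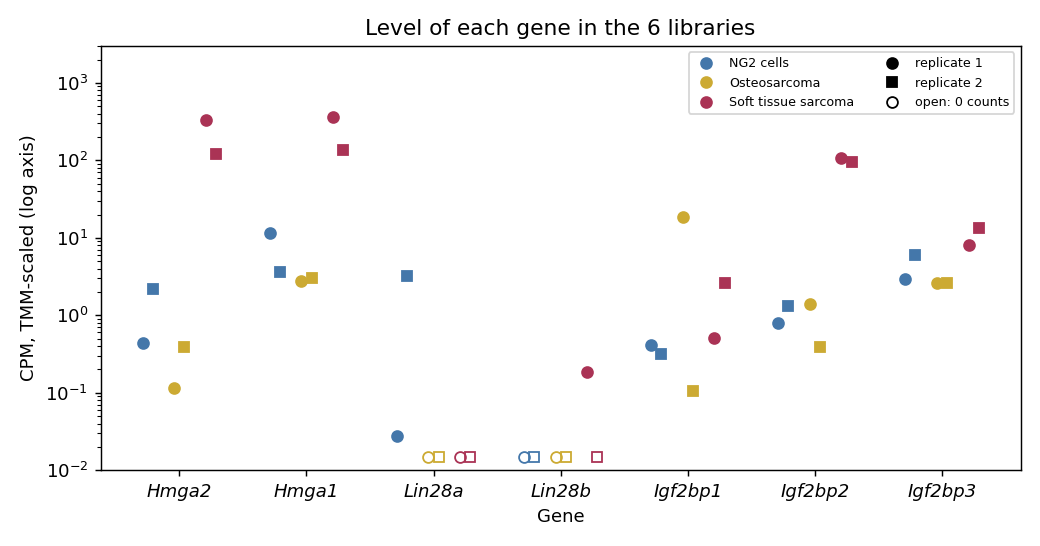
Level of each of the 7 genes in every library as TMM-scaled CPM on a log axis, with colours for the groups, circles for replicate 1, squares for replicate 2 and open symbols at the bottom for 0 counts. Hmga2, Hmga1 and Igf2bp2 are at 94.0 to 368 CPM in the soft tissue sarcomas and at or under 11.5 CPM elsewhere, and Lin28a and Lin28b are at 0 in most libraries.

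The LIN28 genes, which give the circuit its let-7 block, were almost unread. Lin28a (ENSMUSG00000050966, chr4:134003330-134018841) had 1 and 142 counts in the NG2 cells and 0 in all 4 tumours, where 0 counts allow at most 0.0503 to 0.107 CPM (3 counts of the library). The 142 counts, 3.26 CPM, all lay in NG2 replicate 2. That library also stood apart in granulocyte markers: all 7 were detected in both NG2 libraries, but they summed to 3237 CPM in replicate 2 against 64.4 in replicate 1 and at most 26.8 in any tumour. Among them were Ngp at 1298 CPM, Mpo at 442 and Elane at 373, genes of immature granulocytes. Their part in the Lin28a reads, and in the higher Hmga2 count of the same library, was not tested. Lin28b (ENSMUSG00000063804, chr10:45376620-45486395) had 11 counts (0.185 CPM) in soft tissue sarcoma replicate 1 and 0 elsewhere. Neither gene passed the filter on low counts, so neither was tested, and the large Hmga2 and Igf2bp2 levels of the soft tissue sarcomas were measured beside Lin28 levels at or near 0.

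Of the RNA-binding IGF2BP genes, Igf2bp2 (ENSMUSG00000033581, chr16:22059009-22163299, minus strand), the paralog that is also made in adult tissues and is linked to metabolism, followed the pattern of the HMGA genes. Its counts were 29 and 58 in the NG2 cells, 74 and 11 in the osteosarcomas and 6307 and 2790 in the soft tissue sarcomas, or 0.803 and 1.33, 1.40 and 0.391, and 106 and 94.0 CPM. The soft tissue sarcomas were close to each other and far above the rest, while NG2 cells and osteosarcomas overlapped. Igf2bp2 rose 93.1-fold in soft tissue sarcoma against NG2 cells (log2 6.54 ± 0.72, edgeR adjusted p = 0.00871). The log2 difference moved little without single libraries (6.23 to 6.97), although the adjusted p passed 0.05 without soft tissue sarcoma replicate 1 (0.0619) or replicate 2 (0.0683). Against osteosarcoma the ratio was 108-fold (log2 6.75 ± 0.73) with an adjusted p of 0.052, just past the threshold. That comparison passed without osteosarcoma replicate 1 (log2 8.02, adjusted p = 0.0415) or replicate 2 (log2 6.16, adjusted p = 0.0151). Osteosarcoma against NG2 cells gave log2 -0.21 ± 0.60 (adjusted p = 0.823).

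Igf2bp1 (ENSMUSG00000013415, chr11:95957163-96005940, minus strand), the paralog of fetal tissues that stabilises Myc mRNA among others, was a matter of a single tumour. It had 973 counts (18.4 CPM) in the osteosarcoma of the tibia and 3 (0.107 CPM) in that of the spine. The NG2 cells had 15 and 14 counts (0.416 and 0.321 CPM) and the soft tissue sarcomas 30 and 77 (0.503 and 2.59 CPM). The fitted difference of osteosarcoma from NG2 cells, log2 4.65 ± 2.09, did not pass (edgeR adjusted p = 0.156), and the libraries of the 2 groups overlapped. Without osteosarcoma replicate 1 it turned to -1.76 (adjusted p = 0.486), and without replicate 2 it was 5.65 (adjusted p = 0.0264). In the same way soft tissue sarcoma against osteosarcoma went from log2 -2.59 (adjusted p = 0.563) to 3.85 without osteosarcoma replicate 1. The 2 osteosarcomas also differed in site and in several marker sums. Fibroblast markers summed to 2390 CPM in replicate 1 and 597 in replicate 2, and proliferation markers to 1266 and 794. Muscle fibre markers (6 genes) went the other way, with 4.66 and 941 CPM, as did pericyte (420 and 943) and endothelial markers (153 and 427). The part of any of these in the Igf2bp1 gap was not tested. Igf2bp1 in soft tissue sarcoma against NG2 cells, log2 2.06 ± 1.90, was not called (adjusted p = 0.466).

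Igf2bp3 (ENSMUSG00000029814, chr6:49085223-49214957, minus strand), the paralog best known as a tumour antigen, had 106 and 259 counts in the NG2 cells, 139 and 73 in the osteosarcomas and 486 and 395 in the soft tissue sarcomas. Its CPM were 2.94 and 5.94, 2.63 and 2.6, and 8.15 and 13.3. The groups did not overlap, with soft tissue sarcoma highest and osteosarcoma lowest, but the steps were small. In soft tissue sarcoma the log2 difference was 1.27 ± 0.60 against NG2 cells (edgeR adjusted p = 0.181) and 2.04 ± 0.62 against osteosarcoma (adjusted p = 0.207). Osteosarcoma against NG2 cells gave -0.76 ± 0.60 (adjusted p = 0.389). Igf2bp3 shares bases at its 3' end with Malsu1 on the other strand, which had 376 to 2134 counts per library, as Hmga1 does with AI413582. Only reads in the shared bases are in doubt, and the strand setting of the counting is not given.

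Which IGF2BP gene was read most, per kilobase of merged exons, differed with the group. Igf2bp3 made up 70.4% and 77.4% of the summed CPM per kilobase of the 3 genes in the NG2 cells and 83.3% in osteosarcoma replicate 2. Igf2bp1 made up 78.8% in osteosarcoma replicate 1. Igf2bp2 made up 93.1% and 87.0% in the soft tissue sarcomas, where the sum was 15.3 and 14.6 CPM per kilobase, against 0.382 to 2.42 in the other 4 libraries. The sum was thus higher and its leading gene another in both soft tissue sarcomas.

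**Figure D2:**
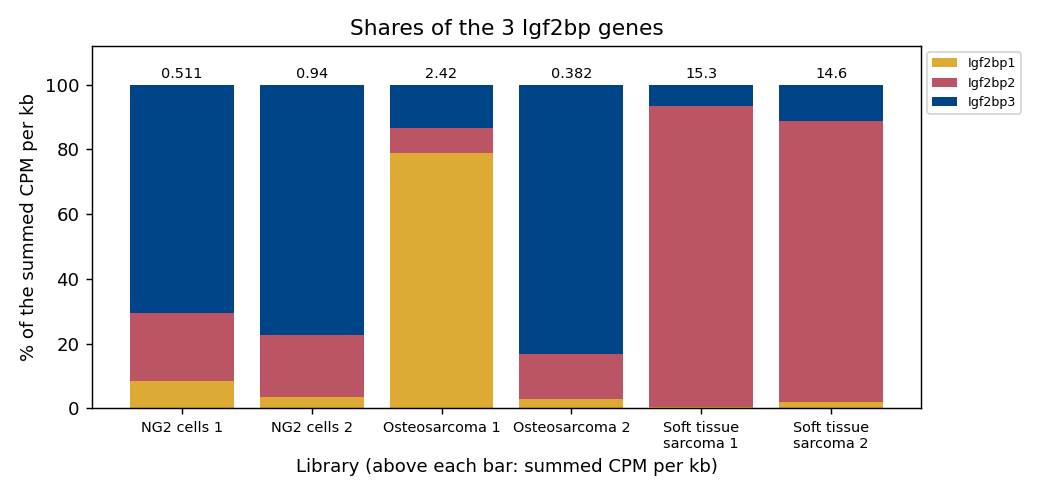
Share of Igf2bp1, Igf2bp2 and Igf2bp3 in the summed CPM per kilobase of merged exons, in percent, for each library, with the sum above each bar. Igf2bp3 leads in both NG2 libraries and in osteosarcoma 2, Igf2bp1 in osteosarcoma 1 at 78.8%, and Igf2bp2 in both soft tissue sarcomas at 93.1% and 87.0%.

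Ordered by mean level per kilobase, Hmga1 led in every group. In the soft tissue sarcomas it stood at 118 ± 77.7 CPM per kilobase (SD, n = 2), followed by Hmga2 at 33.3 ± 22.1, Igf2bp2 at 13.5 ± 1.13, Igf2bp3 at 1.32 ± 0.447, Igf2bp1 at 0.160 ± 0.153 and Lin28b at 0.0102. The library ranges of these neighbours did not overlap down to Igf2bp1, although replicate 2 of Hmga1 (63.4) and replicate 1 of Hmga2 (48.9) came close. Within each soft tissue sarcoma Hmga2 had 0.282 and 0.280 of the level of Hmga1 per kilobase. These ratios rest on the split of reads between Hmga1 and Hmga1b: against the summed levels of both copies per kilobase they were 0.264 and 0.130. In the NG2 cells Hmga1 at 3.57 ± 2.61 was followed by Igf2bp3 at 0.544 ± 0.260, Lin28a at 0.411 ± 0.571, Hmga2 at 0.194 ± 0.181, Igf2bp2 at 0.144 ± 0.0503 and Igf2bp1 at 0.0380. Hmga1 at the top and Igf2bp1 near the bottom stood clear of their neighbours there, while Lin28a rests on a single library and the ranges of Hmga2 and Igf2bp2 overlap. In osteosarcoma Hmga1 (1.35 ± 0.0795) led Igf2bp1 (0.958 ± 1.34, a single library), Igf2bp3 (0.320), Igf2bp2 (0.121 ± 0.0966) and Hmga2 (0.0373 ± 0.0290). Only Igf2bp3 and Igf2bp2 had separate ranges there, and in replicate 1 Igf2bp1 lay above Hmga1. The order was the same with the length of the longest transcript.

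Across comparisons, 5 of the 7 members passed the filter. Hmga2 was among them, with 16 and 95 counts in the NG2 cells, but was not tested because it was chosen by its level. Of the 4 members tested, 2 (Hmga1 and Igf2bp2) were higher in soft tissue sarcoma than in NG2 cells and none was lower, where 9.89% of the 19024 genes tested were higher and 9.4% lower (19.3% in either direction). The soft tissue sarcoma libraries lay wholly above those of NG2 cells in all 4, as 35.8% of all genes did, and 34.6% lay wholly below. In osteosarcoma against NG2 cells none of the 4 was called by edgeR, where 10.5% of genes were higher and 11% lower (21.5% together), and none had an unadjusted p under 0.05. The osteosarcomas lay wholly below the NG2 cells in Hmga1 and Igf2bp3, as 32.4% of genes did, and in none wholly above, as 32.7% did. DESeq2 called Igf2bp1 in that comparison (log2 4.6, adjusted p = 0.0246). Between the tumours edgeR called none of the 4, where 0.0841% of genes were higher and 0.0578% lower in soft tissue sarcoma (0.142% together). There, Hmga1, Igf2bp2 and Igf2bp3 had unadjusted p of 0.000237, 8.41e-05 and 0.0163, and DESeq2 called all 3. Soft tissue sarcoma libraries lay wholly above those of osteosarcoma in 3 of the 4, where 25.8% of all genes did so and 24.5% lay wholly below. The comparisons share groups, so they are not independent of each other.

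**Figure D3:**
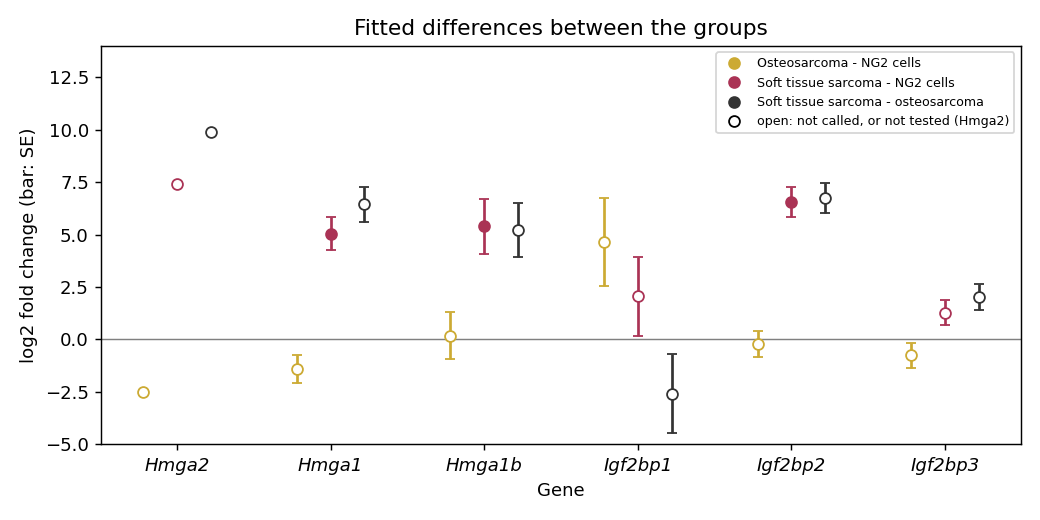
Fitted log2 fold change of each tested member and of Hmga1b in the 3 comparisons, with bars for the standard error and filled points for an edgeR adjusted p under 0.05. The filled points are Hmga1, Hmga1b and Igf2bp2 in soft tissue sarcoma against NG2 cells, and Hmga2 is drawn open without a bar because it was not tested.

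The machinery around LIN28 and let-7 was read from a list of 20 genes, 19 of them tested. The counts of this and the next 3 lists stand against the shares of all tested genes that were called, 10.5% higher and 11% lower in osteosarcoma against NG2 cells and 9.89% higher and 9.4% lower in soft tissue sarcoma against NG2 cells. In osteosarcoma against NG2 cells 1 rose and 4 fell (list median log2 -0.06, all genes 0.04), and in soft tissue sarcoma 2 rose and 2 fell (0.16, all genes 0). The largest fall was that of Tut4 (Zcchc11), the uridylyl transferase that LIN28A recruits to pre-let-7. Its CPM were 167 and 158 in the NG2 cells, 37.7 and 28.9 in the osteosarcomas and 27.4 and 27.0 in the soft tissue sarcomas, with no overlap. It fell by 2.29 ± 0.27 (edgeR adjusted p = 0.00744) and by 2.58 ± 0.27 (adjusted p = 0.00863) on the log2 scale. Tut7 (Zcchc6), its paralog, fell by 1.99 in the osteosarcomas (adjusted p = 0.0112) and was lower by a log2 of -1.52 in the soft tissue sarcomas (adjusted p = 0.0228). Both kept their osteosarcoma call without each of the 6 libraries in turn. Lymphocyte markers summed to 2932 to 5830 CPM in the NG2 cells and 54.1 to 153 in the tumours. Endothelial markers summed to 988 to 1681 CPM in the NG2 cells and 153 to 427 in the tumours. The part of these cell types in the falls of Tut4 and Tut7 was not tested. Tut1, a U6 RNA uridylyl transferase, fell by 1.47 in osteosarcoma (adjusted p = 0.0268), a call lost without any 1 library (adjusted p 0.0632 to 0.0979). Tarbp2, a DICER partner, rose by log2 1.42 (adjusted p = 0.0368) and 2.20 (adjusted p = 0.0153), and Drosha, which cuts primary microRNAs, rose by 1.56 in soft tissue sarcoma (adjusted p = 0.0341). The osteosarcoma call of Tarbp2 was lost without any 1 library but osteosarcoma replicate 1 (adjusted p 0.0907 to 0.129). In soft tissue sarcoma against NG2 cells no gene of the genome was called without either soft tissue sarcoma library, which holds for every call of that comparison. Between the tumours edgeR called none of the 19. Hnrnpa1, which binds the let-7a precursor, had the smallest p there (log2 1.77, adjusted p = 0.0984). Trim71, a let-7 target that works with LIN28, had at most 10 counts in any library and was not tested.

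Other let-7 targets moved in both directions. Of 28 tested genes on that list of 29, 4 rose and 2 fell in osteosarcoma against NG2 cells (median log2 0.30), and 5 rose and 3 fell in soft tissue sarcoma (median 0.60). The first by p in both was Col1a2, a chain of type I collagen, which rose 310-fold (adjusted p = 0.00419) and 35.3-fold (adjusted p = 0.00863). It is also a product of bone and fibroblasts, and in osteosarcoma every osteoblast marker was above both NG2 libraries. In soft tissue sarcoma the osteoblast sum came mostly from Col1a1 (2389 and 1779 CPM) and Spp1 (1916 and 2161 CPM). Ibsp and Phex were higher there too, but at most 1.52 CPM. Alpl was lower (2.18 and 1.72 CPM, against 21.0 and 22.8 in NG2 cells), and Runx2, Bglap, Dmp1 and Sp7 overlapped with NG2 cells. The part of bone cells in the Col1a2 values was not tested. Cdca8, of the mitotic passenger complex, rose by log2 2.42 (adjusted p = 0.00853) and 2.34 (adjusted p = 0.011). Ccnd1, the G1 cyclin D1, had 30.9 and 22.7 CPM in the NG2 cells and 647 and 197 in the soft tissue sarcomas, and rose 15.8-fold there (log2 3.98, adjusted p = 0.0159; log2 2.90 without soft tissue sarcoma replicate 1). The 8 proliferation markers summed to 117 to 199 CPM in the NG2 cells and 732 to 1266 in the tumours, and their part in these values was not tested. Irs2, an insulin receptor substrate, fell by 5.13 in osteosarcoma (adjusted p = 0.0078) and, with adjusted p = 0.0237, fell by 2.84 in the other tumour type. Gas7, a growth arrest gene, fell by 3.86 in osteosarcoma (adjusted p = 0.00616), from 130 and 175 CPM to 13.2 and 7.75. Lymphocyte and endothelial markers were lower in the tumours too, and their part in the falls of Irs2 and Gas7 was not tested. Gas7 and Irs2 were both higher in soft tissue sarcoma than in osteosarcoma without passing (log2 3.09, adjusted p = 0.0583, and 2.29, adjusted p = 0.148).

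Of the other HMG proteins 14 of 15 were tested. In osteosarcoma 2 rose and none fell (median log2 0.41; 21.5% of all genes were called), and in soft tissue sarcoma 3 rose and 1 fell (0.08; 19.3% of all genes). The nucleosome-binding Hmgn3 rose by log2 2.79 (adjusted p = 0.011) and 2.00 (adjusted p = 0.0245), and Hmgb3 by 2.19 (adjusted p = 0.0215) and 1.79 (adjusted p = 0.0361). Hmgn1 rose by 1.75 (adjusted p = 0.0245), and the mitochondrial Tfam fell by 1.79 (adjusted p = 0.0393), both in soft tissue sarcoma. The osteosarcoma call of Hmgn3 was lost without NG2 replicate 1 or 2 (adjusted p = 0.0611 and 0.0622), and that of Hmgb3 without any 1 library but osteosarcoma replicate 2 (adjusted p 0.0527 to 0.083). Between the tumours the list median was -0.19 and no gene was called.

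The remaining oncofetal and stem cell genes, 19 tested of 24, held large differences in both directions. In osteosarcoma 3 rose and 3 fell (median log2 -1.0), and in soft tissue sarcoma 6 rose and 2 fell (median 2.08). Crabp1, a binding protein for retinoic acid, had 1321 and 280 CPM in the soft tissue sarcomas against 0.499 and 0 in the NG2 cells and 0 in both osteosarcomas. Dlk1, an imprinted preadipocyte factor, had 8.22 and 2.97 CPM in the soft tissue sarcomas, 0.139 and 0.0917 in the NG2 cells (47.7-fold) and 0 counts in osteosarcoma. Against osteosarcoma Dlk1 was at least 175-fold higher in soft tissue sarcoma, counting 3 reads for the osteosarcoma group. Crabp1 and Dlk1 are among the 6 that rose. Both passed the filter on low counts only through the soft tissue sarcomas, so their differences are given without a test. Peg10, an imprinted retrotransposon-derived gene, rose in both tumours (log2 4.63, adjusted p = 0.0158, and 4.93, adjusted p = 0.0156), and its osteosarcoma call was lost without NG2 replicate 1 or 2 (adjusted p = 0.0728 and 0.0752). Cd24a, a surface glycoprotein that B cells and granulocytes also carry, fell by 7.28 (adjusted p = 0.00552) and by 5.54 (adjusted p = 0.00983). The lymphocyte markers were lower in the tumours too, and their part in the Cd24a values was not tested. Utf1, a chromatin gene of embryonic stem cells, had 4.49 and 0.573 CPM in the NG2 cells and 0 counts in osteosarcoma. It was at least 63.3-fold lower there (3 reads assumed for the group). Utf1 is among the 3 that fell, but passed the filter only through the NG2 cells, so its difference is also given without a test. Pou5f1, Sall4 and Hmgb4 had 0 counts in all libraries.

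Plag1, a growth factor regulator placed downstream of HMGA2 in fetal growth, had 3.21 and 14.1 CPM in the NG2 cells, 0.0758 and 0 in the osteosarcomas and 17.6 and 6.30 in the soft tissue sarcomas. It fell by 7.50 in osteosarcoma against NG2 cells (adjusted p = 0.0211; log2 -6.06, adjusted p = 0.0631 without NG2 replicate 2, and adjusted p = 0.0503 without soft tissue sarcoma replicate 1), and its difference between the tumours, log2 7.96, did not pass (adjusted p = 0.0984). Igf2 itself, named after its values were seen because it is the classic cargo of the IGF2BP proteins, had 13.8 and 22.3 CPM in the NG2 cells, 2.98 and 13.9 in the osteosarcomas and 3.59 and 2.16 in the soft tissue sarcomas. Its log2 difference of -2.65 in soft tissue sarcoma against NG2 cells was not called (adjusted p = 0.0727). The soft tissue sarcomas, where Igf2bp2 and Hmga2 were highest, lay below both NG2 libraries in Igf2 and overlapped with the osteosarcomas.

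Of the 80 tested genes of the 4 lists, 19 were called in osteosarcoma against NG2 cells, where 21.5% of all tested genes were called, and 24 in soft tissue sarcoma against NG2 cells, where 19.3% were. The latter count was 0 without either soft tissue sarcoma library, where no gene at all was called (edgeR), with 25 and 28 list genes at an unadjusted p under 0.05, and it was 3 and 5 without NG2 replicate 1 and 2. Of the genes named above for that comparison, Col1a2, Tut4 and Cd24a kept their call without either NG2 library. The former was 8 and 9 without NG2 replicate 1 and 2. Between the tumours edgeR called 0 of the 80 tested list genes, where 0.142% of all tested genes were called. An unadjusted p under 0.05 was found for 16 of the 80, and for 3022 of all 19024 tested genes. DESeq2, which called far more genes than edgeR in that comparison, called 12 of the 80.

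**Figure D4:**
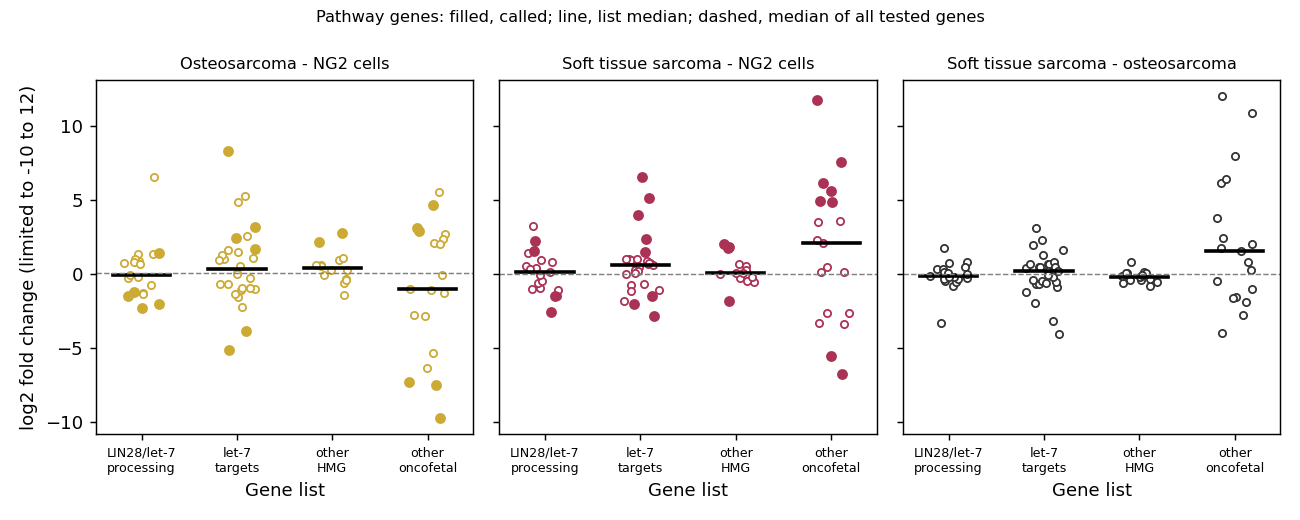
Fitted log2 fold change of every tested gene of the 4 lists in the 3 comparisons, filled where the edgeR adjusted p is under 0.05, with a black line at each list's median and a dashed line at the median of all tested genes. Genes with 0 counts in a group are drawn at fitted values, which depend on the prior count, and values are limited to between -10 and 12. In soft tissue sarcoma against NG2 cells the other oncofetal genes have a median of 2.08 and the other 3 lists lie between 0.08 and 0.60.

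The protein-coding neighbours of Hmga2 were read as well. Of the 11 other protein-coding genes within 1 Mb, all tested, none was called higher in soft tissue sarcoma than in NG2 cells, where 9.89% of all genes were, although 3 had a positive difference. Another 3 were called lower, where 9.4% of all genes were: Irak3, an inhibitor of Toll-like receptor signalling (log2 -2.67), Lemd3, an inner nuclear membrane protein (-2.66), and Rassf3 (-2.41). Their median was -0.57. Against osteosarcoma edgeR called none of the 11, where 0.142% of all genes were called. An unadjusted p under 0.05 was found for 3 of them, and for 3022 of all 19024 genes. DESeq2, which called far more genes than edgeR in that comparison, called 1 of the 11. Only Grip1 had a positive difference, and the median was -0.69. The lowest was Wif1, a secreted Wnt inhibitor of osteoblasts, with 341 and 59.0 CPM in the osteosarcomas and 0.0168 and 0 in the soft tissue sarcomas. Osteosarcoma against NG2 cells had 2 higher and 1 lower, where 10.5% of all genes were higher and 11% lower.

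**Figure D5:**
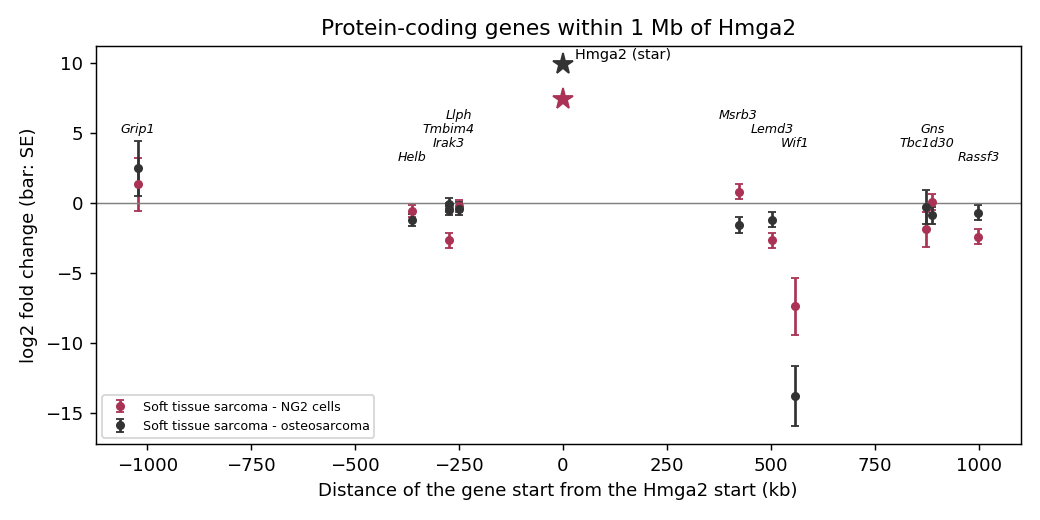
Fitted log2 fold change of soft tissue sarcoma against NG2 cells and against osteosarcoma for Hmga2 (stars, no test) and the 11 protein-coding genes within 1 Mb of it, by the distance of their start from the Hmga2 start in kb, with bars for the standard error. Hmga2 lies at 7.41 and 9.91, and the neighbours range from -7.38 to 1.34 and from -13.8 to 2.46, the lowest value in each being the fitted value of Wif1, which has 1 count in the soft tissue sarcomas.

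Among 14919 protein-coding genes tested, the patterns most like that of Hmga2 by Pearson correlation of log2 CPM over the 6 libraries were those of Otud7b (r = 0.993), Mtmr11 (0.991), Gnb4 (0.987), Spats2l (0.987) and Laptm4a (0.987). The 6 points are 3 pairs of one tissue each and share their libraries, so r is a description of 2 high and 4 low values, and 106 genes exceeded 0.95. Likeness in shape was not likeness in size: Laptm4a, a lysosomal membrane gene, went only from 394 to 581 CPM in the other libraries to 829 and 855 in the soft tissue sarcomas. Of the members, Igf2bp2 ranked at place 103 (r = 0.951), Hmga1 at 125 (0.944), Igf2bp3 at 245 (0.915) and Igf2bp1 at 8710 (-0.09).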

How the data were processed

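RNA was extracted with Trizol, and about 10 ng per sample was reverse transcribed with an oligo(dT) primer and SMART template switching, then amplified in 20 PCR cycles before paired-end sequencing, per the labels' protocols. The deposited values are raw read counts per Ensembl gene, 1 table per library. STAR, HTSeq, DESeq2, cutadapt, Trim Galore and FastQC were used with the builds GRCm38 and mm10, per the submitters' processing notes; versions, strand setting and annotation release were not given in the sources used here. Counters of unassigned reads were left out (reads on no gene were 19.5 to 33.2%).

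The 7 members and the gene lists were chosen with earlier results of these data known. Counts were tested with edgeR 4.0.16 in R 4.3.3 (quasi-likelihood F test, TMM scaling, filterByExpr with min.count 10 and min.total.count 15, 1 model of all 6 libraries, 19024 genes, Benjamini-Hochberg adjusted p under 0.05 over all of them), also run on simulated counts. The model had 3 residual degrees of freedom, and a permutation test of 2 against 2 libraries cannot reach that threshold. Each SE is the absolute log2 fold change over the square root of F. Positions and lengths came from GENCODE M21 (GRCm38, 36723 of 38561 IDs found), miRNA and promoter sequences from RefSeq (GRCm38.p6). Amplified reads carried no molecular identifiers, so intervals cover counting error only. Besides the members, the first 4 genes of each list by p, the 5 genes most like Hmga2, its neighbours within 1 Mb, cell type markers and Trp53 were named. Alternatives were RLE or no scaling, no filter, DESeq2 1.42.0, 2-group fits, a replicate block, leaving out each library, and other lengths and seed matches.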

Additional observations from a re-analysis of the deposited data

How the results depend on the processing

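The directions of Hmga2, and of Hmga1 and Igf2bp2 in soft tissue sarcoma, held under every alternative run, and the calls of Hmga1 and Igf2bp2 against NG2 cells held under all but single-library omissions. Genes called in osteosarcoma against NG2 cells numbered 4086, but 6894 by DESeq2, 2083 with only the 2 groups, 2660 with a replicate block and 1278 to 3429 without 1 library. In soft tissue sarcoma against NG2 cells they numbered 3671, but 6439 by DESeq2, 2209 with the block and 0 to 4694 without 1 library, the 0 arising without either soft tissue sarcoma library (4510 and 4286 genes at an unadjusted p under 0.05). Between the tumours they numbered 27, but 409 without a filter, 1916 by DESeq2, 0 with only the 2 groups (3073 at an unadjusted p under 0.05), 8 with the block and 0 to 315 without 1 library.

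Between the tumours Hmga1 passed without a filter (log2 6.47, adjusted p = 0.00709), by DESeq2 (6.46, 5.55e-17) and summed with Hmga1b (6.09, 0.0395). Igf2bp2 passed with RLE scaling (6.76, 0.0494), without a filter (6.76, 0.00496) and by DESeq2 (6.78, 1.04e-22), and Igf2bp3 by DESeq2 (2.05, 0.0138). Igf2bp1 in osteosarcoma against NG2 cells passed by DESeq2 (4.6, 0.0246). Called list genes, 19, 24 and 0 in the 3 comparisons, came to 38 by DESeq2 in the first, 12 with the block in the second, and 7 without a filter and 12 by DESeq2 between the tumours.

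Without single libraries, log2 differences in osteosarcoma against NG2 cells ran from -3.50 to -0.92 for Hmga2, -2.0 to -0.36 for Hmga1, -1.76 to 5.65 for Igf2bp1, -1.45 to 0.40 for Igf2bp2 (0.21 without NG2 replicate 2) and -1.19 to -0.16 for Igf2bp3. In soft tissue sarcoma against NG2 cells they ran from 6.53 to 9.0, 4.17 to 6.10, 0.47 to 2.83, 6.23 to 6.97 and 0.86 to 1.88. Between the tumours they ran from 8.97 to 10.93, 5.56 to 7.02, -4.19 to 3.85, 6.16 to 8.02 and 1.65 to 2.35. Called list genes ran from 8 to 20, 0 to 27 and 0 to 5. Hmga1b in osteosarcoma against NG2 cells ran from -0.65 to 2.36 (-0.17 without osteosarcoma replicate 1), and Trp53 between the tumours from -0.12 to 0.28 (-0.05 without soft tissue sarcoma replicate 1).

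Replicate numbers did not pair the libraries (correlations of same-numbered deviations of 0.05, 0.00 and -0.09), and with the block Hmga1 (log2 5.08) and Igf2bp2 (6.49) against NG2 cells were still called. Without scaling, the median of all genes shifted by 0.15 in soft tissue sarcoma against NG2 cells and by less than 0.1 elsewhere. Members with a seed match went from 7 to 6 with 8 bases. The cause of these changes was not tested. Low counts of Lin28a and Lin28b in all libraries, and of Hmga2 outside soft tissue sarcoma, at most 142, limit what their levels can show.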
